A study of Mus musculus with 4 samples.

Results

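The miRNA family of miR-130 and miR-301 was followed in small RNA libraries of the mouse main olfactory epithelium, where the odour-sensing neurons of the nose sit among supporting and stem cells. Its members were taken by name: every row of the deposited miRNA table called miR-130a, miR-130b, miR-301a or miR-301b, on either arm of the hairpin. This gave 8 of 1167 rows, a 5p and a 3p arm for each of 4 hairpins: mmu-miR-130a-3p, mmu-miR-130a-5p, mmu-miR-130b-3p, mmu-miR-130b-5p, mmu-miR-301a-3p, mmu-miR-301a-5p, mmu-miR-301b-3p and mmu-miR-301b-5p, written without the species prefix from here on. The libraries came from male C57BL/6 mice 3 months old, 2 from wild type and 2 from AC3-/-, which lacks adenylyl cyclase 3, the enzyme that makes cAMP in olfactory neurons in response to odours. The question is how the miRNAs of this tissue differ when that enzyme is missing. Small RNA libraries hold no AC3 mRNA by which to check the genotype. Whether 2 libraries of 1 genotype are 2 mice is not in the labels. The family was chosen by name, but selected on genotype means that were already known (the mean read counts of AC3-/- and wild type), so its genotype differences are given as a description, without a test of their own.

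A miRNA is cut from a hairpin transcript as a short duplex, and the strand that enters an Argonaute protein pairs with target mRNAs through its seed, bases 2 to 8, and lowers their translation and stability. The 3p arms of this family share 1 seed, so they can address the same sites in target mRNAs. miR-130a is known for repressing the homeobox genes GAX and HOXA5 in human endothelial cells, miR-130b for repressing TP53INP1 in human liver cancer cells, and miR-301a for repressing the NF-kappaB inhibitor NKRF in human cancer cells.

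The mature 3p sequences are shown because the seed, in capitals, defines the family (RefSeq, GRCm38.p6, 5′ to 3′).
miR-130a-3p: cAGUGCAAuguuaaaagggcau
miR-130b-3p: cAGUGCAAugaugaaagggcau
miR-301a-3p: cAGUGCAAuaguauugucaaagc
Compared base by base from the 5′ end, miR-130a-3p and miR-130b-3p were equal at 20 of 22 positions, including the last 9. miR-301a-3p was equal to miR-130a-3p at 12 of 22 positions and to miR-130b-3p at 11 of 22. The seed AGUGCAA stood at bases 2 to 8 of 7 of 1679 mouse miRNAs in the RefSeq table. The others, miR-130c, miR-721, miR-6341 and miR-6389, were not among the rows of the deposited table. A total of 947 of the 1167 rows and 7 of the 8 members matched a mature RefSeq sequence by name.

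The 5p arms are shown for a stretch, in capitals, that is the reverse complement of the seed, UUGCACU.
miR-130a-5p: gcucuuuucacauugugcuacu
miR-130b-5p: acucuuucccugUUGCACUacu
miR-301a-5p: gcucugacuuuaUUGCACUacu
miR-301b-5p: gcucugacuaggUUGCACUacu
The stretch lay at bases 13 to 19 in each of the 5p arms that hold it, outside their own seeds, and those letters are not in miR-130a-5p. Among all 1679 mature miRNAs, 9 held it (0.536%). The 5p seeds formed 3 groups: CUCUGAC in miR-301a-5p and miR-301b-5p, CUCUUUC in miR-130b-5p and CUCUUUU in miR-130a-5p. miR-301a-5p and miR-301b-5p were equal at 19 of 22 positions.

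The hairpins lie at 3 places in the genome (GRCm38). Mir130b, at chr16:17124061-17124142, and Mir301b, at chr16:17124400-17124496, are on the minus strand with 257 bases between them, and both lie in the protein-coding gene 2610318N02Rik, on its strand and outside its annotated exons. Mir301, the gene of miR-301a, lies at chr11:87113004-87113089 on the plus strand, outside the exons of Ska2, a gene of the mitotic spindle and kinetochore. Mir130a lies at chr2:84741115-84741178 on the minus strand, in no other annotated gene (GENCODE M21). No other hairpin of the RefSeq table lay within 10 kb of any of the 4. The paired hairpins of chromosome 16 are shown whole, with the seed and its reverse complement in capitals.
Mir130b: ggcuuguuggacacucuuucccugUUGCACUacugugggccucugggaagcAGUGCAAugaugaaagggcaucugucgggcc
Mir301b: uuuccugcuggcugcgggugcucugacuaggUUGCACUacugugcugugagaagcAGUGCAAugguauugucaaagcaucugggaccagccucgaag
The bases between both stretches numbered 20 in Mir130b and 17 in Mir301b. Both stretches occurred together in 4 of 1005 RefSeq mouse hairpins (0.398%), 3 of them Mir130b, Mir301b and Mir301.

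The deposited values are means of normalised read counts over the 2 libraries of a genotype. The whole reads behind each mean could be worked back, which gave all 8 members a value in each library. The libraries are called a and b within a genotype; the letters carry no replicate number. The means stand for 19201686 to 20063529 reads in both AC3-/- libraries together and 21071945 to 23190561 in both wild-type libraries. Wild-type library b stood apart from the other 3. Of the 443 miRNAs that had library values and averaged 10 or more normalised reads, 114 differed at least 2-fold within the wild-type pair and 26 within the AC3-/- pair. Every marker miRNA looked up for the cell types of the tissue was listed above 0. In the authors' deposited table the 6 arms of the miR-183/96/182 cluster, known for sensory epithelia, had summed means of 818741 (AC3-/-) and 2716670 (wild type). The 3 arms of it with library values came to 1374 and 659.9 in AC3-/- libraries and 1318 and 6309 in wild-type ones. Over these 3 arms, wild-type library b alone was high. They hold a small part of the summed means. The arms without library values hold the rest, so which library carries the gap between the summed means is not known.

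The members ranked from 202 to 602 of 1167 rows by their mean over both genotypes, with miR-130a-3p as the most read. Values are given in the order library a, library b: miR-130a-3p had 378.9 and 516.1 normalised reads in AC3-/-, then 468.6 and 335.6 in wild type (435, 567, 441 and 287 reads). The genotypes overlapped, with the highest value in AC3-/- and the lowest in wild-type library b. The means were 447.5 ± 97.0 in AC3-/- and 402.1 ± 94.0 in wild type (SD, n = 2 libraries each), a ratio of 1.11. By its mean over both genotypes it ranked 202 of 1167. On the log2 scale, with 1 added to each mean, the ratio of AC3-/- to wild type was 0.15, against an SD of 0.33 between libraries of a genotype. Without wild-type library b it was -0.07.

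Both miR-301a arms and both miR-130b arms followed, with levels that overlapped. Over the 4 libraries, miR-301a-5p ranged from 46.4 to 68.8 normalised reads, miR-301a-3p from 42.5 to 71.3, miR-130b-5p from 24.6 to 67.4 and miR-130b-3p from 28.1 to 67.4. miR-130a-5p, from 16.6 to 30.9, overlapped the lower end of both miR-130b arms. miR-301b-3p ranged from 2.34 to 15.9, and miR-301b-5p, the scarcest, from 1.82 to 6.38; these also overlapped. Adaptor ligation and PCR favour some sequences, so this is an order of read numbers and not of molecules.

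**Figure D1:**
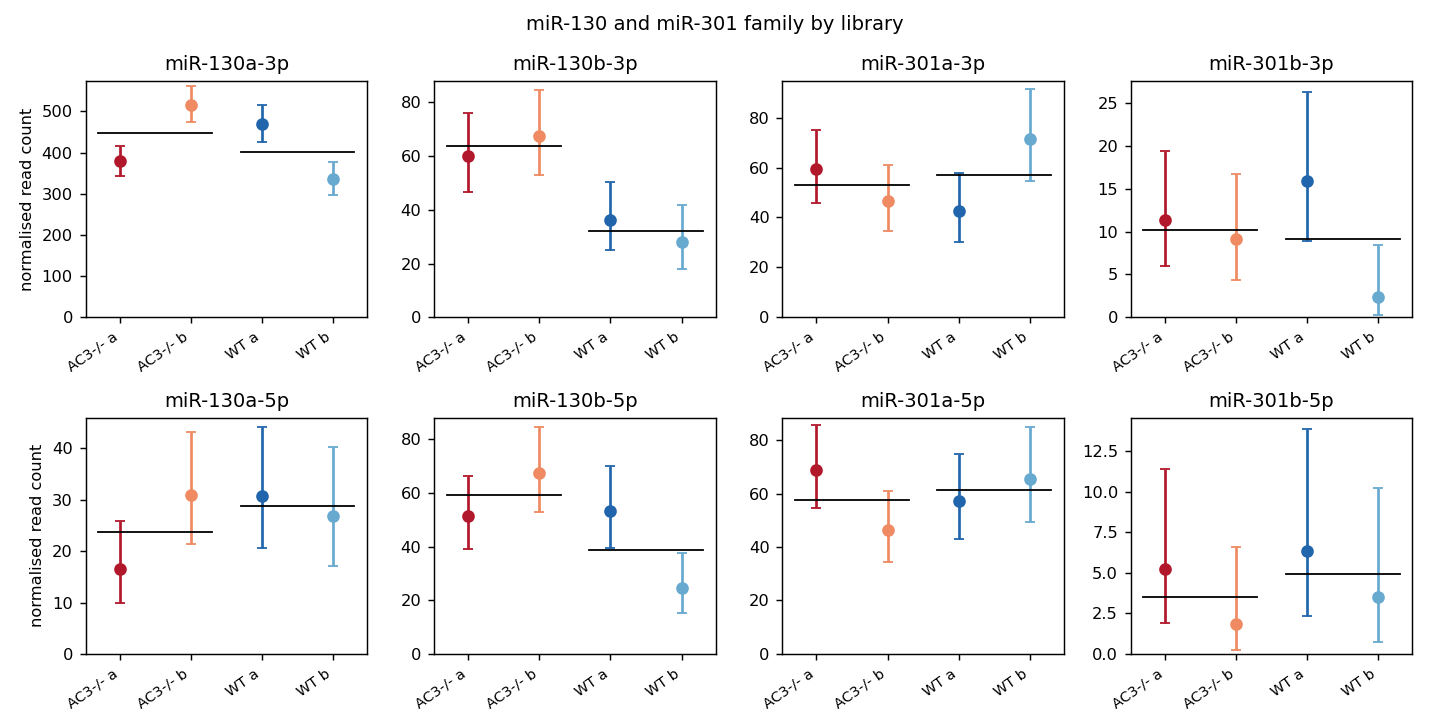
Normalised read count (linear axis from 0, with its own scale in each panel) of each family member in the 2 AC3-/- and 2 wild-type (WT) libraries. Points are libraries, vertical bars are exact 95% Poisson intervals of the reads (counting error only) and horizontal lines are genotype means. In the miR-130b-3p panel both AC3-/- libraries, at 60.1 and 67.4, lie above both wild-type libraries, at 36.1 and 28.1; in every other panel the genotypes overlap.

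In the miR-130b/miR-301b cluster, miR-130b-3p was read about 2-fold more often in AC3-/-. Its neighbour miR-301b-3p had too few reads, 2 to 15 per library, to say whether it differed in the same way. miR-130b-3p had 60.1 and 67.4 normalised reads in AC3-/- but 36.1 and 28.1 in wild type (69, 74, 34 and 24 reads). Both AC3-/- libraries lay above both wild-type libraries, and miR-130b-3p was the 1 member of 8 whose genotypes did not overlap. Among those 443 miRNAs, 16.7% had both AC3-/- libraries above both wild-type ones, and 33.9% did not overlap in either direction. The means were 63.7 ± 5.13 and 32.1 ± 5.70 (SD, n = 2 each), a ratio of 1.99 and a log2 ratio of 0.97 with an SD of 0.19 between libraries of a genotype. Leaving out 1 library at a time gave log2 ratios from 0.80, without wild-type library b, to 1.16. Counting error alone is wide at these read numbers: the 95% Poisson intervals reached down to 46.8 in AC3-/- library a and up to 50.5 in wild-type library a.

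The authors' deposited table gives miR-130b-3p a shrunken log2 fold change of 0.82 with p = 0.0327, which adjustment over the 1167 rows raised to an adjusted p of 0.940. In the authors' deposited table it was the 1 member of 8 whose unadjusted p was under 0.05, as it was in 3.51% of all rows. No member passed an adjusted p of 0.05 there, which 0.0857% of all rows did. These values belong to the comparison with which the family was chosen, so nothing is read from them. Among 492 rows with a mean of at least 10, 2.85% had a log2 ratio at least as high as miR-130b-3p.

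The other arm of the same hairpin, miR-130b-5p, had 51.4 and 67.4 normalised reads in AC3-/- and 53.1 and 24.6 in wild type (59, 74, 50 and 21 reads). The genotypes overlapped, since wild-type library a lay above AC3-/- library a. The means were 59.4 ± 11.3 and 38.8 ± 20.2 (SD, n = 2 each) and the log2 ratio 0.60, with an SD of 0.57 between libraries. Without wild-type library b the log2 ratio was 0.16, and without library a 1.24.

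miR-301b-3p had 11.3 and 9.10 normalised reads in AC3-/- and 15.9 and 2.34 in wild type (13, 10, 15 and 2 reads). Its highest and its lowest value were both in wild type. The means of 10.2 ± 1.57 and 9.14 ± 9.62 (SD, n = 2 each) gave a log2 ratio of 0.15, which was -0.60 without wild-type library b and 1.75 without library a. miR-301b-5p had 5.23 and 1.82 normalised reads against 6.38 and 3.51 (6, 2, 6 and 3 reads), and its log2 ratio of -0.39 lay within the SD of 0.67 between libraries.

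miR-301a, read from the Ska2 intron, had near-equal means in both genotypes. miR-301a-3p had 59.2 and 46.4 normalised reads in AC3-/- and 42.5 and 71.3 in wild type (68, 51, 40 and 61 reads), so both wild-type values lay outside the AC3-/- pair, 1 on each side. Its means were 52.8 ± 9.06 and 56.9 ± 20.4 (SD, n = 2 each), a log2 ratio of -0.11 with an SD of 0.41 between libraries; without wild-type library b it was 0.31. miR-301a-5p had 68.8 and 46.4 against 57.4 and 65.5, with means of 57.6 ± 15.8 and 61.4 ± 5.73 and a log2 ratio of -0.09 (SD 0.29 between libraries). miR-130a-5p, the minor arm of miR-130a, had 16.6 and 30.9 against 30.8 and 26.9, with means of 23.8 ± 10.2 and 28.9 ± 2.77 and a log2 ratio of -0.27 (SD 0.44 between libraries).

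The wild-type pair split the family. Both miR-301a arms were higher in wild-type library b than in library a, by 0.73 (3p) and 0.19 (5p) on the log2 scale. The other 6 members were lower in library b, from -0.19 for miR-130a-5p to -2.34 for miR-301b-3p. The median over 443 miRNAs was 0.04 and the SD 1.11, and the members lay within 1 SD of that median except miR-301b-3p and, just outside it at -1.08, miR-130b-5p.

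By the authors' size factors, 4 of 8 members had the higher mean in AC3-/-, against 49.4% of all 1167 rows. The median log2 ratio was 0.03 over the 8 members and -0.01 over all rows. Of the 8, 5 had genotype means within 1.3-fold of each other. The share of all rows within 1.3-fold was not counted, so whether this is usual for the data is not known. When the means were instead divided by their sum per genotype, every ratio rose by 0.50 on the log2 scale, or somewhat less for scarce miRNAs because 1 is added to each mean, and all 8 members lay above 0. miR-130b-3p was then at 1.45 where the median of all rows was 0.45. The lowest member, miR-301b-5p, at 0.0061, lay below that median. So did miR-130a-5p at 0.21, miR-301a-3p at 0.38 and miR-301a-5p at 0.40.

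**Figure D2:**
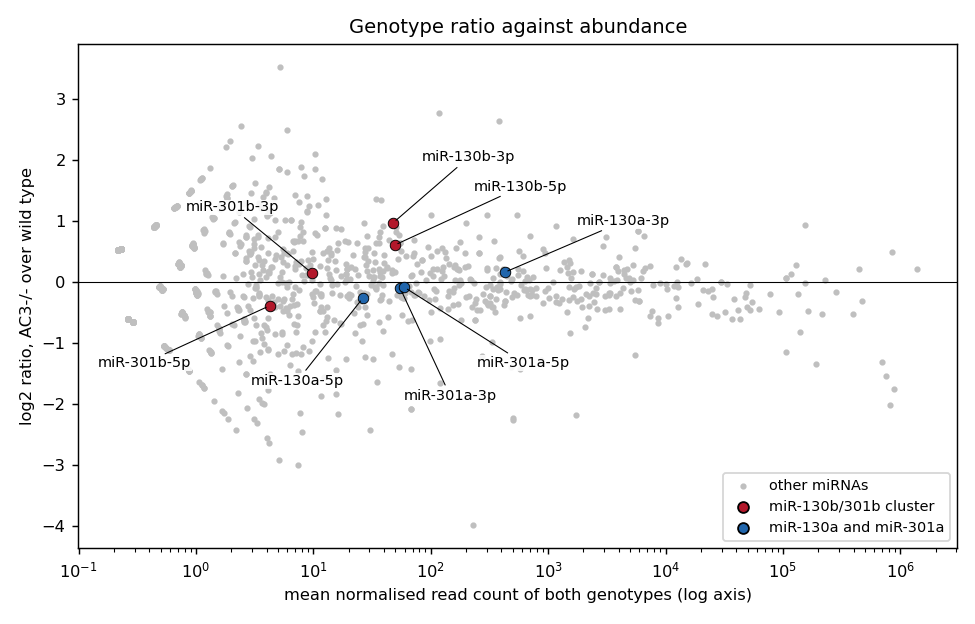
Log2 ratio of the AC3-/- to the wild-type mean (1 added to each) against the mean normalised read count of both genotypes (log axis) for all 1167 miRNAs in grey, with the miR-130b/miR-301b cluster in red and miR-130a and miR-301a in blue. miR-130b-3p, at 0.97, is the highest member, and the members span -0.39 to 0.97.

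The cluster was then set against the singly placed genes over the 3p arms. The mean log2 ratio of miR-130b-3p and miR-301b-3p exceeded that of miR-130a-3p and miR-301a-3p by 0.53, less than the SD of 0.74 that this contrast showed between libraries of a genotype. Its level within each library, the mean log2 value of the cluster minus that of miR-130a-3p and miR-301a-3p, was -2.46 and -2.58 in AC3-/- and -2.51 and -3.99 in wild type. Wild-type library a lay between the AC3-/- libraries, and library b lay apart. The difference was -0.017 without wild-type library b and 1.46 without library a, so it depended on which wild-type library was kept. Without library b hardly any difference was left. With miR-130b-5p added to the cluster, the difference was 0.55. With miR-130b-3p as the only cluster member, a choice made after the low read number of miR-301b-3p was seen, the difference was 0.94. That value mostly restates the log2 ratio of 0.97 of miR-130b-3p itself and does not stand for the cluster.

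Ratios between members within 1 library do not depend on size factors. There were 0.159 and 0.131 reads of miR-130b-3p per read of miR-130a-3p in AC3-/-, and 0.0771 and 0.0836 in wild type, with no overlap. This ratio holds the same miR-130b-3p reads that did not overlap above, so it is not a separate observation. How many other miRNAs had ratios to miR-130a-3p that did not overlap was not counted. miR-301a-3p per miR-130a-3p came to 0.156 and 0.0899 in AC3-/- and 0.0907 and 0.213 in wild type, which overlapped. miR-301b-3p per miR-130b-3p, from the same cluster, ran from 0.0833 to 0.441 in wild type alone, a range that held both AC3-/- values of 0.188 and 0.135.

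**Figure D3:**
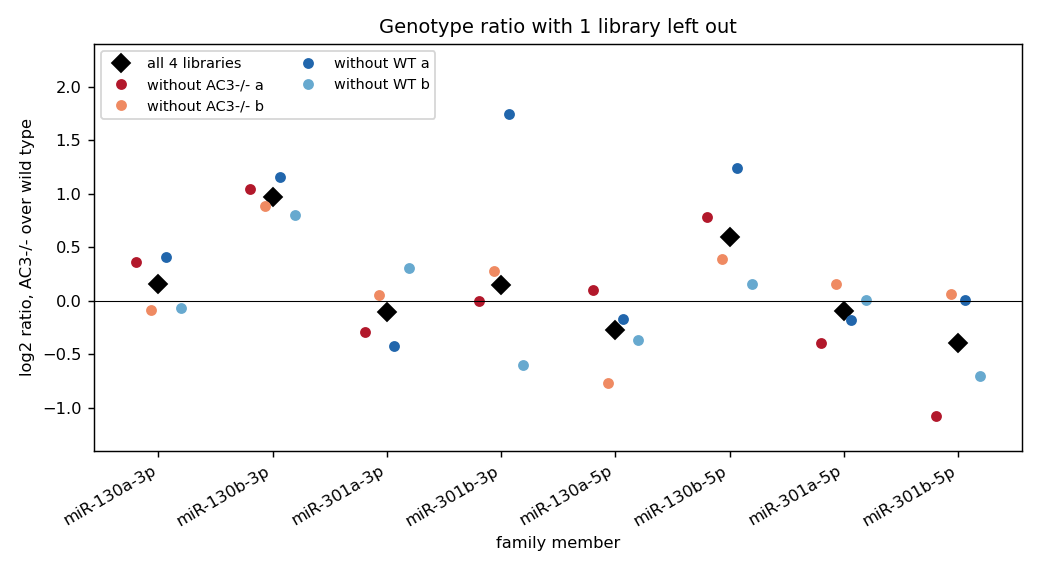
Log2 ratio of AC3-/- to wild type (vertical axis) for each member with all 4 libraries (diamonds) and with 1 library left out (circles, coloured by the library left out). miR-130b-3p stays between 0.80 and 1.16 and miR-130b-5p between 0.16 and 1.24, while the other 6 members fall on both sides of 0.

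Summed over the 3p arms, which share the seed, the family had 509.6 and 639.0 normalised reads in AC3-/- and 563.2 and 437.4 in wild type, with overlap. The means were 574.3 ± 91.5 and 500.3 ± 89.0 (SD, n = 2 each), a log2 ratio of 0.20 that was 0.03 without wild-type library b. miR-130a-3p held 77.9% of the summed 3p reads in AC3-/- and 80.4% in wild type. miR-130b-3p held 11.1% in AC3-/- (11.8% and 10.5% in libraries a and b) and 6.42% in wild type (6.42% in each library). miR-301a-3p held 9.20% and 11.4%, with 16.3% in wild-type library b, and miR-301b-3p 1.78% and 1.83%. Without miR-130a-3p, the other 3p arms summed to 130.7 and 122.9 in AC3-/- and 94.6 and 101.7 in wild type. Both this sum and the share of miR-130b-3p hold the miR-130b-3p reads that did not overlap above. Neither is a separate observation, and miR-301a-3p and miR-301b-3p each overlapped between the genotypes. Among the 443 single miRNAs, 33.9% did not overlap in either direction.

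**Figure D4:**
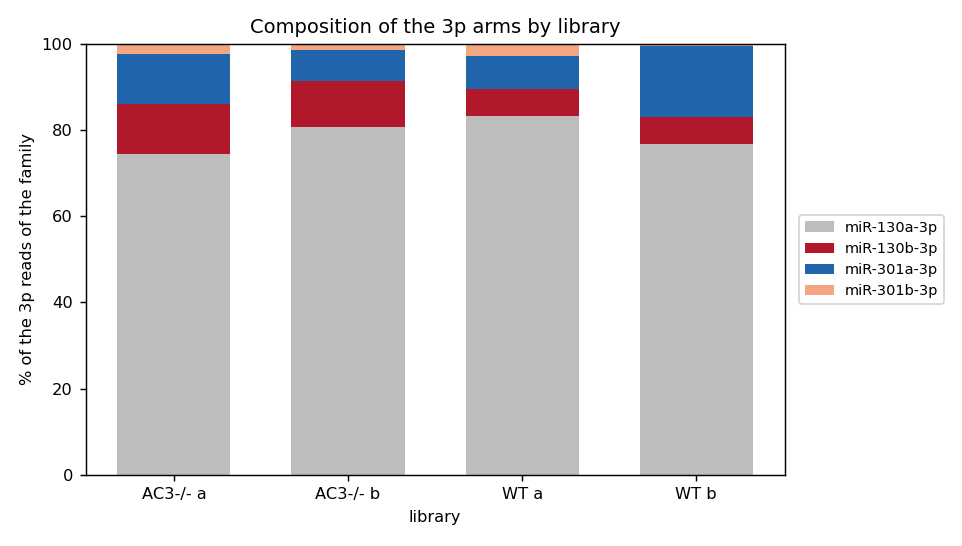
Share of the family's 3p reads (percent, stacked to 100) held by each 3p arm in each library. miR-130a-3p holds most reads in all 4 libraries, and miR-130b-3p holds 11.8% and 10.5% in AC3-/- against 6.42% in each wild-type library.

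The hairpins differed in which arm was read. In miR-130a the 5p arm gave 105 of 1835 reads over the 4 libraries, 5.72% (95% Clopper-Pearson interval 4.70 to 6.88%, counting error only). In miR-130b it gave 204 of 405 reads, 50.4% (45.4 to 55.3%), and in miR-301a 240 of 460, 52.2% (47.5 to 56.8%). The shares by library ran from 4.19% to 7.42% for miR-130a, from 46.1% to 59.5% for miR-130b and from 47.9% to 57.4% for miR-301a, so miR-130a lay apart from both in every library. The miR-301b hairpin had 17 of 57 reads from the 5p arm, 29.8% (18.4 to 43.4%). Its shares by library were 31.6% and 16.7% in AC3-/- and 28.6% and 60% in wild type, on 19, 12, 21 and 5 reads. Among 204 hairpins of the table with library values for both arms and at least 50 reads, 11.8% had at least 40% of their reads in the lesser arm, as miR-130b and miR-301a did, and the median lesser arm held 5.51%. Ligation differs between sequences, so these shares are of reads and not of molecules.

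Arm shares of miR-130b and miR-301a overlapped between the genotypes. The 5p share of miR-130b was 46.1% and 50% in AC3-/- and 59.5% and 46.7% in wild type, and that of miR-301a was 53.7% and 50% against 57.4% and 47.9%. For miR-130a the AC3-/- shares of 4.19% and 5.66% lay below the wild-type shares of 6.17% and 7.42%, with intervals that overlapped (2.54 to 6.46% in AC3-/- library a and 4.76 to 10.9% in wild-type library b). How many other hairpins had arm shares that did not overlap was not counted, so nothing is read from this. Of single miRNAs, 33.9% had read counts that did not overlap between the genotypes.

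**Figure D5:**
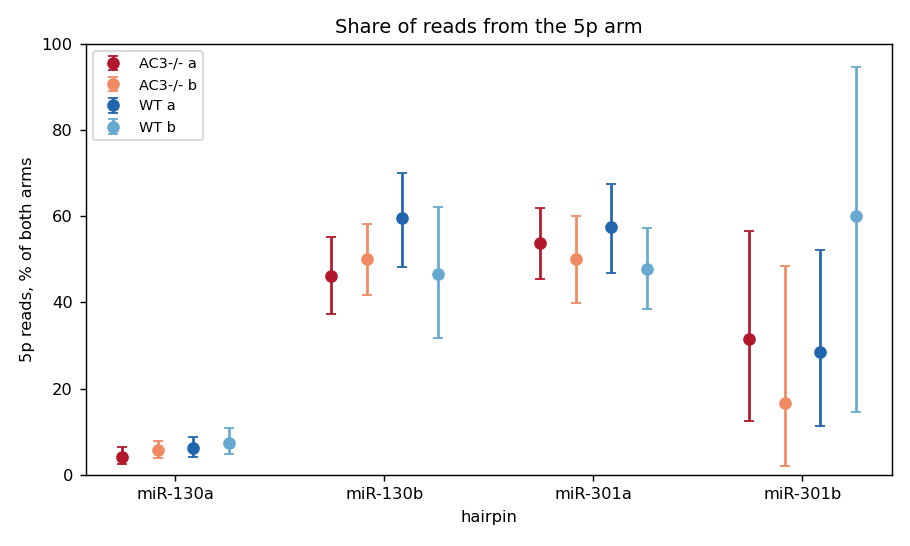
Share of each hairpin's reads that came from its 5p arm (percent, axis from 0 to 100) in each library, with exact 95% Clopper-Pearson intervals. miR-130a lies between 4.19% and 7.42%, and miR-130b and miR-301a between 46.1% and 59.5%.

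miRNAs with profiles like those of the family were found by the root mean square distance of log2 values over the 4 libraries, each centred on its own mean, among 246 miRNAs with a mean of at least 100. Nearest to the summed 3p arms were miR-135a-5p (0.041), miR-126b-5p (0.044), miR-222-3p (0.060), miR-361-5p (0.062) and miR-100-5p (0.074), against a median distance of 0.36. miR-135a-5p had 277.9 and 370.5 normalised reads in AC3-/- and 306.0 and 250.3 in wild type, in the same order of libraries as the summed arms. Nearest to the sum of miR-130b-3p and miR-301b-3p were miR-34a-5p (0.15), miR-326-3p (0.16), miR-1298-5p (0.17), and miR-467a-5p and miR-467b-5p (0.18 each), against a median of 0.59. The last 2 have equal values in every library and are not separate observations. With 4 libraries these distances describe the samples only.

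Fewer cells of a type and less RNA per cell cannot be told apart in these bulk samples. Of 9 marker lists, 2 had library sums that did not overlap between genotypes, as did 33.9% of single miRNAs, and both were lower in AC3-/-. The 3 of 3 striated muscle miRNAs summed to 6537 and 4389 in AC3-/- and 6603 and 7011 in wild type. In the epithelial list 1 of 7 miRNAs had library values, 3296 and 3307 in AC3-/- and 3784 and 11472 in wild type. It holds a small part of the list, whose means over all 7 miRNAs summed to 1012660 (AC3-/-) and 2745330 (wild type). The leukocyte list summed to 219356 (AC3-/-) and 118088 (wild type) over the means of all 7 miRNAs, while the 6 with library values overlapped. In most of the other lists, the miRNAs with library values were lowest or highest in wild-type library b. miR-130a-3p, both miR-130b arms and miR-301b-3p had their lowest values in that library. There 6 of 7 multiciliated-cell miRNAs summed to 5971, against 13840 to 30581 in the other 3 libraries, and 6 of 7 leukocyte miRNAs to 6369, against 15694 to 20157. The sum of 3 of 6 sensory-epithelium arms was high there, as given above. So was that of 2 of 5 neuronal miRNAs, at 6122 against 3344 to 4016. The 4 of 4 red blood cell miRNAs were lowest there, at 3180 against 4759 to 6224. So was the 1 of 2 endothelial miRNAs with library values, at 1776 against 2642 to 3679. The 1 of 3 mesenchymal miRNAs with library values had 3166 there, within the 2552 to 3887 of the rest. Over the means of all its miRNAs, the multiciliated list summed to 250250 (AC3-/-) and 244217 (wild type). The neuronal list summed to 139694 (AC3-/-) and 131716 (wild type). The miRNAs without library values held most of these sums, so the whole lists could not be followed by library. No listed marker was at 0 in both genotypes. Their part in the values of the family was not tested.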

How the data were processed

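Per the labels' protocols, RNA of frozen tissue was extracted with Trizol and made into ligation-based, size-selected small RNA libraries, with no molecular identifiers described. Bowtie, DESeq 1.8.3 and the build GRCm38 appear in the submitters' processing notes without a role; how reads were counted and filtered, and against which miRBase release, is not stated in the sources used here. The authors deposited 1 table of 1167 rows with a signal, the mean normalised read count of each genotype, and their shrunken log2 fold change, p-value and adjusted p-value (Benjamini-Hochberg over the 1167 rows, as recomputed).

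Each mean is a whole-number combination of the 2 libraries' steps. Solving for whole reads gave 1 solution in 1120 rows (96.0%) for AC3-/- and 1123 (96.2%) for wild type, and 6745 of 6745 such rows were right in 6 simulated tables. Size factors were 1.15 and 1.10 in AC3-/- and 0.941 and 0.855 in wild type. log2 ratios add a pseudocount of 1, which understates changes of scarce miRNAs. limma 3.58.1 (R 4.3.3, intensity trend, log2 of value plus 1) was fitted to 443 miRNAs. In simulated libraries it called 182 of 200 miRNAs changed 4-fold and 8 of those unchanged. The simulation gave every library the same dispersion of 0.1. The real wild-type pair spread more widely than the AC3-/- pair (SD of the log2 ratio of library b over a 1.11 against 0.57). The simulated rate of calls therefore does not carry over to the real libraries. Intervals cover counting error only.

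The members and lists were chosen with earlier results of these data known. All members, same-seed miRNAs, hairpin neighbours and the 5 nearest profiles were named. Alternatives covered scale, pseudocount, normalisation, low-value filters and each library left out. miR-130a-3p and miR-130b-3p differ at 2 of 22 positions, and how reads matching several miRNAs were counted is not given.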

Additional observations from a re-analysis of the deposited data

How the results depend on the processing

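With 2 libraries per genotype, an exact permutation test cannot go below p = 0.333, and members with few reads are limited by counting. Of 40 member log2 ratios under other settings with all libraries, 35 stayed within 1 SD of the reported value and 35 kept their sign; of 32 with 1 library left out, 26 and 21 did. Dividing means by their sum put all 8 members higher in AC3-/- and the 3p sum at 0.69. The median of all rows rose as well, to 0.45, since this scaling shifts abundant miRNAs up by 0.50 and scarce ones by less. With 1 library left out, the count of members higher in AC3-/- ran from 4 to 6, the 3p sum from 0.03 to 0.39, and the cluster contrast from -0.017 without wild-type library b to 1.46 without library a. The authors' deposited table has 1 miRNA past an adjusted p of 0.05 and 41 with an unadjusted p under 0.05, of which 17 remained at a mean of at least 100, where fewer rows were tested. limma called 0 at an adjusted p of 0.05 (18 with an unadjusted p under 0.05), and from 0 to 64 with 1 library left out: 64 with wild-type library b as the lone wild-type library and 1 with library a, where the spread of the AC3-/- pair has to stand for both genotypes. No paired analysis was possible because the deposited columns carry no replicate number.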
